A study of Homo sapiens with 6 samples.

Results

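The Wnt signalling genes described here are 49 protein-coding genes of the 30230 genes in the deposited count table, taken by a rule on gene symbols. The rule was set with earlier results of these data known, and the study had reported LBH as higher after silencing. The rule took every WNT ligand, FZD receptor, the co-receptors LRP5 and LRP6, the DKK and SFRP antagonists, the AXIN, NKD and APC genes, CTNNB1, the TCF/LEF factors, the LGR receptors, RNF43, ZNRF3 and LBH. By role these were 16 ligands, 9 Frizzled receptors, 2 co-receptors, 3 R-spondin receptors of the LGR family, 2 receptor ubiquitin ligases, 6 secreted antagonists, 6 cytoplasmic components, 4 TCF/LEF factors and LBH. The measurements came from A549, an established human lung adenocarcinoma cell line. Polyadenylated RNA was sequenced from 3 control libraries (NC) and from 3 libraries made after silencing of FSCN1 (siFSCN1). FSCN1 encodes fascin, which bundles actin filaments. The treatment label of NC names a control plasmid, while the study's methods describe a scrambled siRNA as the control. For siFSCN1 the study's text names a single siRNA out of 3 designed, so the 3 silenced libraries share 1 silencing sequence. The study's text calls the replicates biological, while the labels do not say whether they came from separate cultures. P-values below measure the spread between these libraries. The comparison asks which Wnt transcripts differ in level when FSCN1 is silenced.

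Wnt ligands are secreted lipid-modified glycoproteins that bind Frizzled receptors together with LRP5 or LRP6. In the canonical branch this binding stops a complex of AXIN, APC and kinases from marking beta-catenin (CTNNB1) for degradation, and beta-catenin then acts with TCF/LEF factors on target genes. Other Wnt-Frizzled signals act on cell polarity and the cytoskeleton without beta-catenin. In the lung, WNT7B is an epithelial ligand of the developing organ, and the pathway is active in progenitor cells of the adult alveolus.

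FSCN1 itself was at 45.0, 47.2 and 46.0 FPKM (the deposited fragment level per gene length and library size) in NC replicates 1, 2 and 3, and at 4.46, 2.82 and 3.19 in the siFSCN1 replicates. Its log2 fold change was -3.89 (standard error 0.094, adjusted p = 8.1e-16 in edgeR's quasi-likelihood test), so the targeted gene followed the labels. The libraries held between 27967301 and 36560919 counts. All 6 epithelial markers examined were detected, and their summed level ran from 3117 to 3498 FPKM in NC and from 1759 to 2115 in siFSCN1. KRT7, KRT8, KRT18 and KRT19 were lower and CDH1 and EPCAM higher in the silenced cells. Summed FPKM stayed at or below 0.68 for 3 leukocyte markers, 0.04 for 3 endothelial markers and 0.39 for 3 fibroblast markers in every library, with PTPRC, CD3E, PECAM1, CDH5, VWF, COL3A1 and DCN at or near 0. The part of the epithelial marker shift in the Wnt values was not tested.

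Of the 49 genes, 38 had enough counts to be tested. In siFSCN1 against NC, 3 of the 38 were called higher (LBH, SFRP4 and WNT6) and 2 were called lower (FZD9 and WNT7B), where a call needed an adjusted p under 0.05 and a difference of at least 2-fold. That is 7.89% called higher, beside 11.7% of all 17076 genes tested, and 5.26% called lower, beside 4.85% of all genes tested. Without the fold requirement 15 rose, or 39.5% beside 35.1% of all genes tested, 9 fell, or 23.7% beside 33.2%, and 14 did not pass. Normalised counts of the NC and siFSCN1 libraries did not overlap for 23 of the 38 genes, or 60.5%, while they did not overlap for 71.3% of all genes tested. The median log2 fold change over the 38 genes was 0.06, and over all genes tested it was 0.03. The study had picked LBH from these libraries for its difference, so the shares were also taken without it. Over the 37 other tested genes 5.41% were called higher and 5.41% called lower. Without the fold requirement 37.8% rose and 24.3% fell, and 59.5% did not overlap. The shares over the Wnt genes thus lay near the shares over the whole transcriptome, and the description below is of single genes and of how ligands, receptors and antagonists were composed. In RNA from whole cultures, fewer cells that express a gene and less RNA per cell cannot be told apart.

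**Figure D1:**
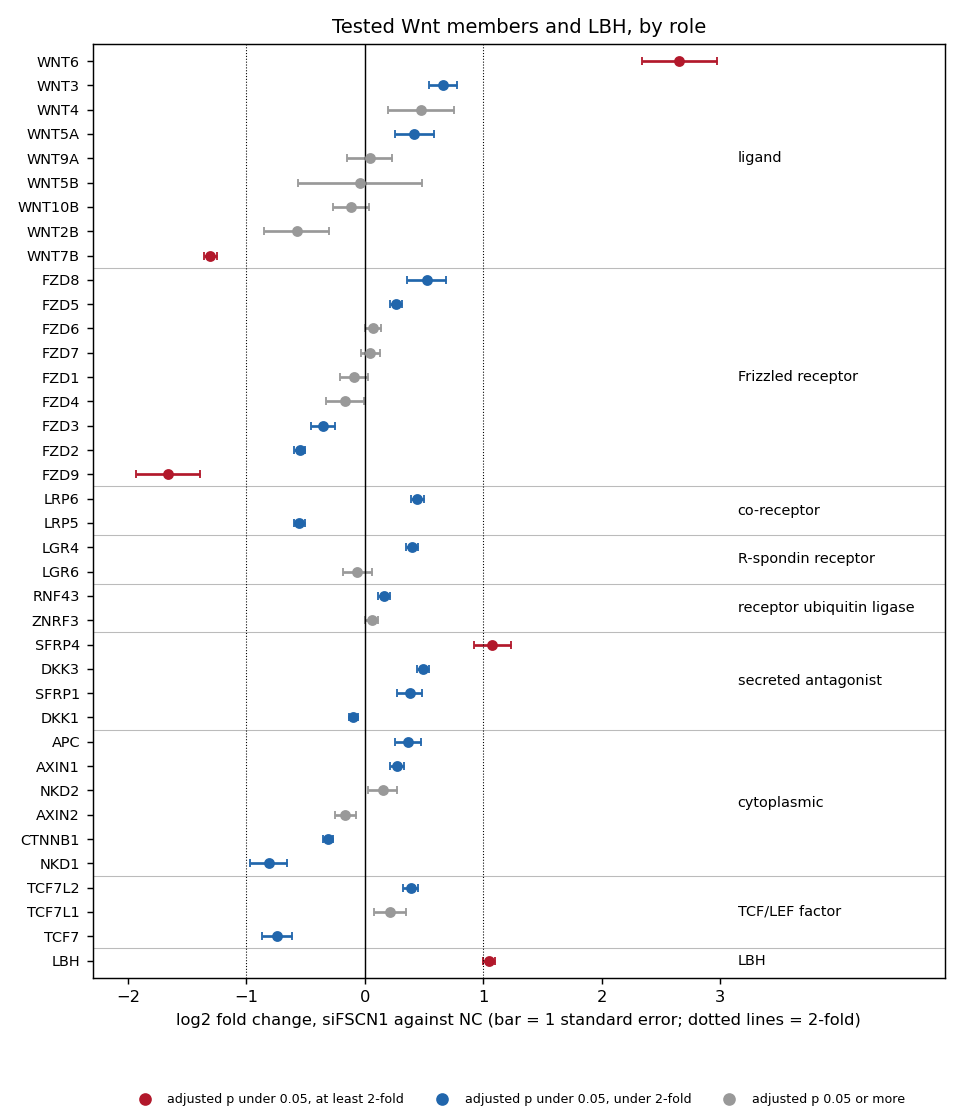
Log2 fold change of the 38 tested genes, siFSCN1 against NC, grouped by role, with points for the estimate from edgeR and bars for 1 standard error. WNT6, SFRP4 and LBH lie above the 2-fold line, FZD9 and WNT7B lie below it, and every role with 2 or more tested genes other than the ligases has estimates on both sides of 0.

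On the FPKM scale, which allows levels of different genes to be compared, DKK1 was the most abundant of the 49 transcripts in both groups. In NC it was followed by LBH, WNT7B, FZD2, LGR4, CTNNB1 and LRP5, and these 7 genes were the ones with a mean of at least 10 FPKM. The values of LGR4 and CTNNB1 overlapped in NC, while each other pair of neighbours in this order was separated in all libraries. In siFSCN1 the order became DKK1, LBH, LGR4, FZD2, CTNNB1, WNT7B and LRP5, with only the values of WNT7B and LRP5 overlapping between neighbours. Thus WNT7B went from the third to the sixth place and LGR4 from the fifth to the third. A mean of at least 1 FPKM was reached by 21 genes in NC and by 25 in siFSCN1, and 12 were under 0.1 FPKM in NC. Deposited FPKM is not corrected for the composition of the RNA. FZD1, for example, crossed 1 FPKM (0.987 in NC, 1.04 in siFSCN1) with a log2 fold change of -0.09 on normalised counts.

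**Figure D2:**
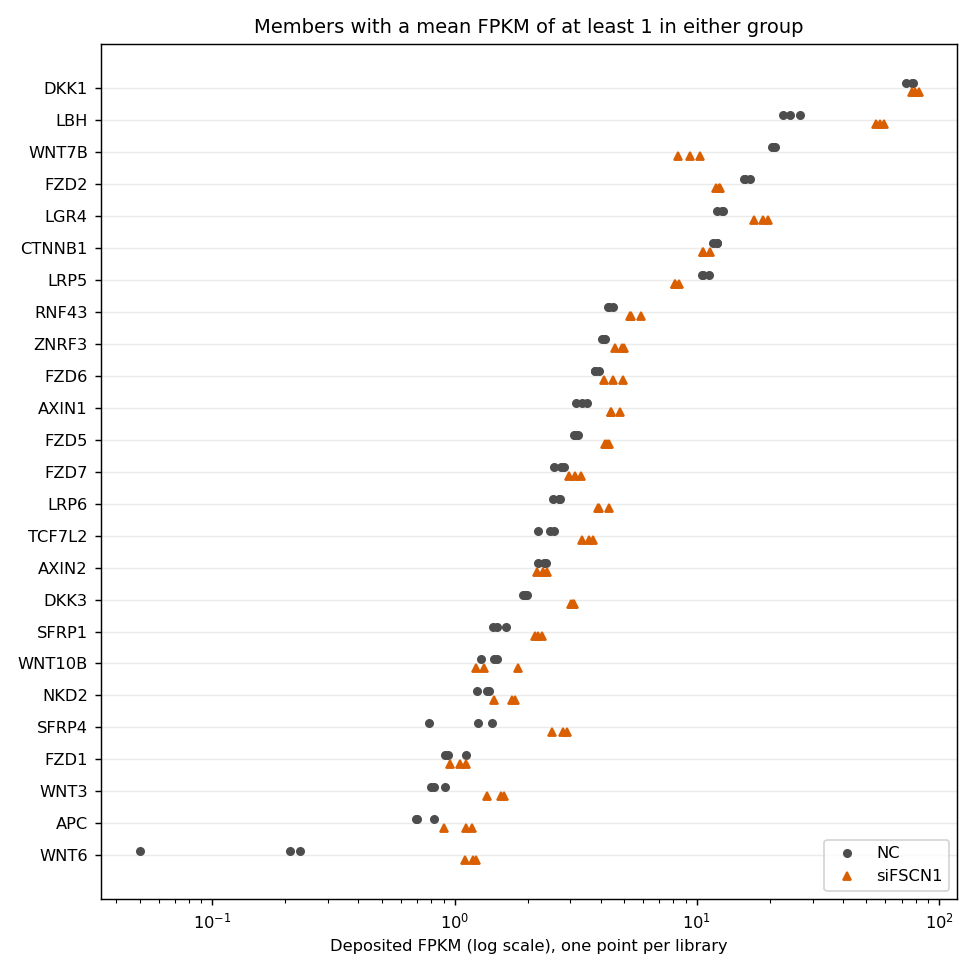
Deposited FPKM of the genes with a mean of at least 1 in either group, on a log axis, with 1 point per library (grey circles for NC, orange triangles for siFSCN1). The points of WNT6, WNT7B, LBH, SFRP4, LGR4 and LRP6 separate by group, while those of AXIN2, WNT10B and FZD1 lie over each other.

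Among the ligands, WNT7B fell and WNT6 and WNT3 rose. WNT7B (ENSG00000188064.10, chromosome 22, 45920366 to 45977162, minus strand of GRCh38) was at 20.6, 20.3 and 20.9 FPKM in NC and at 10.3, 8.37 and 9.39 in siFSCN1. Every silenced library thus lay under every control library, with a mean of 20.6 ± 0.296 (SD, n = 3) against 9.35 ± 0.961 (SD, n = 3). The log2 fold change of WNT7B was -1.31 (standard error 0.055, adjusted p = 4.17e-13), a 2.47-fold lower normalised count in siFSCN1, and no gene annotated in GENCODE v44 overlaps it.

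WNT6 (ENSG00000115596.4, chromosome 2, 218859805 to 218874233, plus strand) encodes a ligand known from epithelial and kidney development. It was at 0.050, 0.21 and 0.23 FPKM in NC, on 3, 12 and 17 counts. In siFSCN1 it was at 1.19, 1.10 and 1.23 FPKM, on 78, 71 and 81 counts. The groups were far apart, with the 3 silenced libraries close together and the control libraries near the limit of detection. The log2 fold change was 2.66 (standard error 0.316, adjusted p = 6.15e-07). WNT6 reached the count minimum of the filter in every siFSCN1 library and in NC replicates 2 and 3, but not in NC replicate 1. No other tested Wnt gene reached it in every library of siFSCN1 only, the group where WNT6 was high. Over all 17076 genes tested, 1267 reached it in every library of siFSCN1 only and 303 in every library of NC only. The call of WNT6 is therefore not independent of the filter. WNT10A, the next ligand gene along the same strand of chromosome 2, had between 0 and 4 counts in every library.

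WNT3 (ENSG00000108379.10, chromosome 17, 46762506 to 46833154, minus strand), a ligand of the canonical branch, was at 0.82, 0.80 and 0.91 FPKM in NC and at 1.60, 1.55 and 1.36 in siFSCN1. All silenced libraries were above all control libraries, and the log2 fold change was 0.66 (standard error 0.118, adjusted p = 7.57e-05). Its neighbour WNT9B on the opposite strand stayed at 0 to 5 counts. WNT5A, the classical ligand of signalling without beta-catenin, had a log2 fold change of 0.42 (adjusted p = 0.0335) with overlapping groups. WNT5A did not pass with DESeq2 (adjusted p = 0.0576), with the abundance trend removed (adjusted p = 0.373), without NC replicate 2 (adjusted p = 0.202) or without siFSCN1 replicate 3 (adjusted p = 0.251). The remaining 5 tested ligands did not pass, with log2 fold changes of -0.58 for WNT2B (adjusted p = 0.0736), -0.11 for WNT10B, -0.04 for WNT5B, 0.04 for WNT9A and 0.47 for WNT4 (adjusted p = 0.146). WNT2B passed as lower with the abundance trend removed (adjusted p = 0.00362) and without NC replicate 1 (0.0399). WNT4 passed as higher with library totals (0.043) and without NC replicate 1 (0.0322). WNT10B passed as lower with the abundance trend removed (0.0481). WNT2, WNT3A, WNT7A, WNT8B, WNT9B, WNT10A and WNT11 were not tested, at no more than 5 counts in any library.

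Summed over the 16 ligands, the deposited FPKM was 24.4 ± 0.422 in the control and 15.2 ± 0.730 in the silenced cells (SD, n = 3). WNT7B made up 84.5% ± 0.782 of the ligand sum in NC and 61.3% ± 3.40 in siFSCN1, so its share fell while it remained the main ligand transcript. The other 15 ligands together were at 3.79 ± 0.234 FPKM in NC and at 5.88 ± 0.240 in siFSCN1. The ligand pool of the silenced cells was therefore smaller and less dominated by WNT7B, as the plot of ligand transcripts per library shows.

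**Figure D3:**
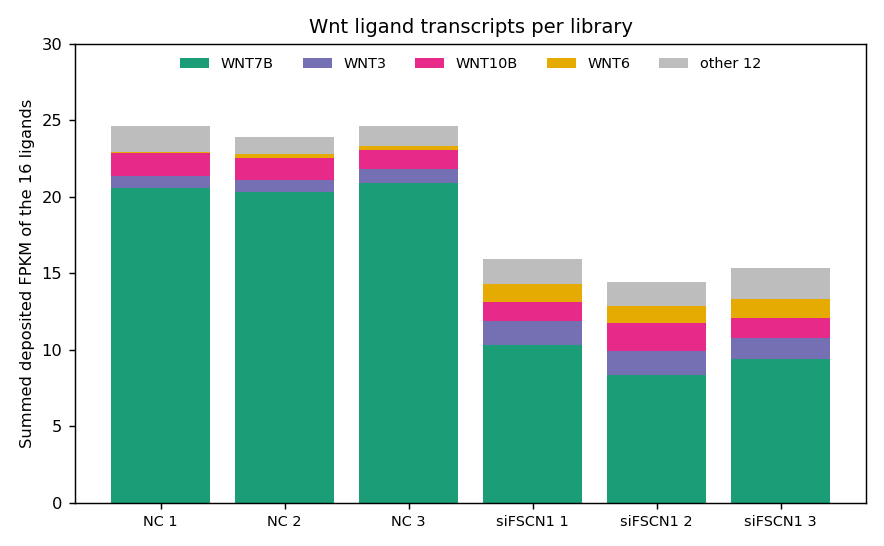
Summed deposited FPKM of the 16 Wnt ligands in each library, stacked by ligand, with the 12 ligands other than WNT7B, WNT3, WNT10B and WNT6 in grey. The WNT7B block is at least 20.3 in NC and at most 10.3 in siFSCN1, and the WNT6 block is at most 0.23 in NC and at least 1.10 in siFSCN1.

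The siRNA that the study names for the silenced libraries has a guide strand whose positions 2 to 8 pair with the letters CTCTGGA. These letters were searched on the transcript strand in the longest annotated 3′ UTR of each gene. They occurred in 12 of the 38 tested genes, or 31.6%, beside 2540 of 13236 tested protein-coding genes, or 19.2%. Of the 5 called genes, WNT7B, FZD9 and WNT6 had matches, and LBH and SFRP4 had none. The sites in the 3 genes are shown because genes that fell and a gene that rose hold the same letters, which stand in capitals.

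WNT7B, chr22:45921452-45921472, minus strand: cctggggCTCTGGAcctggga
FZD9, chr7:73436076-73436096, plus strand: tgcgttcCTCTGGAagctgtg
WNT6, chr2:218873968-218873988, plus strand: cccagggCTCTGGAaatggtg
WNT6, chr2:218874146-218874166, plus strand: taaaggcCTCTGGAtactggg

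The median log2 fold change was -0.11 over all genes with such a match and -0.003 over those without one. Over the tested Wnt genes it was 0.02 with a match and 0.06 without. WNT3, which rose, and FZD2, which fell, held 1 match each, DKK3, which rose, held 2, and NKD1, which fell, held 5 in a 3′ UTR of 15468 bases. A match of letters is not a measured binding site, and its part in any of these differences was not tested.

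The Frizzled genes encode the seven-pass membrane receptors that bind Wnt ligands. Of the 9, all tested, 2 rose (FZD5 and FZD8), 3 fell (FZD2, FZD3 and FZD9) and 4 did not pass. FZD9 (ENSG00000188763.5, chromosome 7, 73433778 to 73436120, plus strand) was at 0.59, 0.63 and 0.54 FPKM in NC and at 0.13, 0.24 and 0.25 in siFSCN1. This rested on 49 to 54 counts per NC library and on 12 to 22 counts per siFSCN1 library. The groups did not overlap, and the log2 fold change was -1.66 (standard error 0.273, adjusted p = 3.05e-05), a 3.17-fold difference in a receptor of low abundance.

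FZD2, the most abundant Frizzled transcript, was at 15.6, 15.8 and 16.6 FPKM in NC and at 12.5, 11.95 and 12.3 in siFSCN1. Again the groups did not overlap, at a log2 fold change of -0.55 (standard error 0.047, adjusted p = 6.56e-09), below the 2-fold requirement. FZD2 made up 55.2% ± 1.05 of the summed Frizzled FPKM in the control and 44.8% ± 0.575 in the silenced cells (SD, n = 3). FZD3 fell by 0.35 on the log2 scale (adjusted p = 0.00386). FZD5 rose by 0.26 (adjusted p = 0.000124) and FZD8 by 0.52 (adjusted p = 0.0091), the last with overlapping groups. FZD3 did not pass with library totals (adjusted p = 0.156) or either limma fit (0.166 and 0.127). FZD8 did not pass with the abundance trend removed (adjusted p = 0.185), without NC replicate 3 (0.0656) or without siFSCN1 replicate 2 (0.0579). FZD1, FZD4, FZD6 and FZD7 had log2 fold changes between -0.17 and 0.07 and adjusted p of at least 0.377. FZD6 passed as higher with upper quartile scaling (adjusted p = 0.0218), library totals (0.00406) and both limma fits (0.0219 and 0.0242). FZD7 passed as higher with library totals (0.0166) and both limma fits (0.0282 and 0.0304). FZD4 passed as lower with the abundance trend removed (0.018).

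The co-receptors LRP5 and LRP6, which carry the canonical signal together with a Frizzled receptor, moved in opposite directions. LRP5 was at 10.5, 11.2 and 10.6 FPKM in NC and at 8.13, 8.13 and 8.43 in siFSCN1, with a log2 fold change of -0.55 (standard error 0.048, adjusted p = 8.41e-09). LRP6 was at 2.54, 2.70 and 2.73 FPKM in NC and at 3.90, 3.95 and 4.33 in siFSCN1, with a log2 fold change of 0.44 (standard error 0.056, adjusted p = 1.23e-06). Neither gene's groups overlapped. The ratio of LRP6 to LRP5 within a library, which does not depend on the scaling of libraries, was 0.242, 0.241 and 0.258 in NC and 0.480, 0.486 and 0.514 in siFSCN1. LRP5 thus remained the more abundant of the pair in every library, by a smaller margin in the silenced cells.

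LGR4, LGR5 and LGR6 bind R-spondins and so keep the ubiquitin ligases RNF43 and ZNRF3 from removing Frizzled receptors from the cell surface. LGR4 rose, from 12.1, 12.9 and 12.7 FPKM in NC to 17.3, 18.7 and 19.7 in siFSCN1, with no overlap and a log2 fold change of 0.40 (standard error 0.051, adjusted p = 1.36e-06). It was the main LGR transcript, at 93.8% ± 0.384 of the LGR sum in NC and at 95.5% ± 0.174 in siFSCN1 (SD, n = 3). LGR6 did not pass (log2 fold change -0.07, adjusted p = 0.65), and LGR5, a marker of intestinal stem cells, had at most 2 counts per library. RNF43 was at 4.32, 4.30 and 4.52 FPKM in NC and at 5.86, 5.34 and 5.30 in siFSCN1, a log2 fold change of 0.16 (standard error 0.052, adjusted p = 0.0108) that did not pass without NC replicate 1 (adjusted p = 0.0546) or without siFSCN1 replicate 1 (adjusted p = 0.0599). Of the annotated exonic bases of RNF43, 68.4% are shared with a transcript on the same strand (RP5-1171I10.8), so its counts are uncertain. ZNRF3 had a log2 fold change of 0.06 (adjusted p = 0.355). It passed as higher with upper quartile scaling (adjusted p = 0.00914), library totals (0.000845), both limma fits (0.00697 and 0.00765) and the abundance trend removed (0.0248). LGR6 passed as lower with the abundance trend removed (adjusted p = 0.0391).

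Among the secreted antagonists, SFRP4, DKK3 and SFRP1 rose, and DKK1, by far the most abundant, differed little. SFRP proteins bind Wnt ligands outside the cell, while DKK1 blocks LRP5 and LRP6. SFRP4 (ENSG00000106483.12, chromosome 7, 37905932 to 38025695, minus strand) was at 1.42, 0.78 and 1.25 FPKM in NC and at 2.90, 2.52 and 2.81 in siFSCN1. All silenced libraries were above all control libraries, though NC replicate 2 was well below the other control libraries. The log2 fold change was 1.08 (standard error 0.155, adjusted p = 6.57e-06), but it was under 2-fold without NC replicate 2 (0.86), with the abundance trend removed (0.91) and with limma on log2(FPKM + 1) (0.81). The SFRP4 locus lies across EPDR1 on the opposite strand, a gene with a log2 fold change of 1.44 and no shared exonic base, and the part of EPDR1 reads in the SFRP4 counts was not tested.

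DKK3, an atypical member of the DKK family, was at 1.96, 1.98 and 1.91 FPKM in NC and at 3.11, 3.03 and 3.07 in siFSCN1, with a log2 fold change of 0.49 (standard error 0.050, adjusted p = 7.79e-08). Of its annotated exonic bases 47.5% are shared with USP47 on the opposite strand, which had a log2 fold change of 0.29. SFRP1 had a log2 fold change of 0.38 (adjusted p = 0.00323). SFRP2 and SFRP5 were not tested, at 0 to 12 counts.

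DKK1 (ENSG00000107984.10, chromosome 10, 52314281 to 52318042, plus strand), itself a target of the canonical pathway, was at 77.7, 73.1 and 77.0 FPKM in NC and at 79.3, 82.2 and 77.5 in siFSCN1. These values overlapped between the groups. After TMM scaling the mean normalised count (CPM) was 212 ± 7.57 in NC and 199 ± 7.59 in siFSCN1 (SD, n = 3), a log2 fold change of -0.10 (standard error 0.041, adjusted p = 0.0432). That direction depended on the scaling, since the log2 fold change was 0.09 (adjusted p = 0.0483) with library totals and 0.16 (adjusted p = 0.00226) with the trend of fold change on abundance removed. With the replicate number as a block the fall did not pass (adjusted p = 0.0507). Independently of the scaling, DKK1 made up 94.1% ± 0.126 of the summed antagonist FPKM in NC and 90.8% ± 0.399 in siFSCN1 (SD, n = 3). The other antagonists together were at 4.75 ± 0.194 FPKM in NC and at 8.11 ± 0.171 in siFSCN1.

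The promoter of DKK1 is shown because it was the only one of the examined Wnt gene promoters with CTTTGA or its reverse complement TCAAAG. These letters are a form of the core of a TCF/LEF site, and other forms were not searched. Promoter windows ran from 250 bases before to 50 bases after the gene start in RefSeq (GRCh38.p14), and 35 of the 49 genes had one. AXIN2 and WNT7B were among those without a window. The letters occurred in 1 of these 35 windows, or 2.86%, beside 8.76% of the windows of tested protein-coding genes and 12.9% of all windows. The median GC content was 71.3% over the windows of the Wnt genes and 65.3% over those of tested protein-coding genes. In the 250 bases before the DKK1 start, the matches begin at -149 and -95 and stand in capitals.

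DKK1, chr10:52314031-52314280, plus strand: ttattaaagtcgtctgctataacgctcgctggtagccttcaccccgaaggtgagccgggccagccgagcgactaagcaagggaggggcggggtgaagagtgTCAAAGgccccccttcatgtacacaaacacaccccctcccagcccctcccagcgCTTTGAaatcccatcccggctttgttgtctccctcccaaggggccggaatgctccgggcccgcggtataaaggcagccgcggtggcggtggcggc

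A match of these letters is not a measured binding site, and the lack of a match says only that the letters are not in the window.

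In the cytoplasm, CTNNB1 and NKD1 fell, APC and AXIN1 rose, and AXIN2 and NKD2 did not pass. CTNNB1 (ENSG00000168036.18), the gene of beta-catenin, was at 12.1, 12.1 and 11.6 FPKM in NC and at 10.6, 10.6 and 11.3 in siFSCN1. The groups did not overlap, with the third silenced library nearest to NC, and the log2 fold change was -0.31 (standard error 0.042, adjusted p = 3.45e-06). With the trend of fold change on abundance removed it was -0.07 (adjusted p = 0.127), close to the median of genes of its abundance.

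AXIN2 (ENSG00000168646.13), a scaffold of the destruction complex and the most widely used target gene of beta-catenin signalling, was at 2.33, 2.39 and 2.20 FPKM in NC and at 2.32, 2.19 and 2.41 in siFSCN1. Its NC mean was 2.31 ± 0.0971 and its siFSCN1 mean 2.31 ± 0.111 (SD, n = 3). After TMM scaling the log2 fold change was -0.16 (standard error 0.086, adjusted p = 0.0998), and with library totals it was 0.02, but with the abundance trend removed it was -0.23 (adjusted p = 0.0239) and without siFSCN1 replicate 3 it was -0.21 (adjusted p = 0.0323). A transcript on the same strand (CTD-2535L24.2) shares 25.3% of its exonic bases.

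APC (ENSG00000134982.17), the scaffold that is lost in most colorectal tumours, was at 0.69, 0.70 and 0.82 FPKM in NC and at 0.90, 1.11 and 1.18 in siFSCN1. The log2 fold change was 0.37 (standard error 0.112, adjusted p = 0.0076), with normalised counts that overlapped between the groups. AXIN1, the constitutive counterpart of AXIN2, rose by 0.27 on the log2 scale (adjusted p = 0.000308). NKD1, an inhibitor that binds Dishevelled and is itself induced by the pathway, was at 0.35, 0.26 and 0.33 FPKM in NC and at 0.16, 0.19 and 0.25 in siFSCN1. Its log2 fold change was -0.81 (standard error 0.156, adjusted p = 0.000161), while its paralog NKD2 stood at 0.15 (adjusted p = 0.286). NKD2 passed as higher with library totals (adjusted p = 0.0208) and both limma fits (0.0277 and 0.0266).

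The TCF/LEF factors bind DNA for beta-catenin. TCF7 fell, from 0.60, 0.53 and 0.52 FPKM in NC to 0.41, 0.39 and 0.31 in siFSCN1, with a log2 fold change of -0.74 (standard error 0.128, adjusted p = 5.02e-05). TCF7L2, the most abundant of the family here, rose from 2.20, 2.48 and 2.56 FPKM to 3.57, 3.35 and 3.71, with a log2 fold change of 0.39 (standard error 0.062, adjusted p = 2.46e-05). Neither gene's groups overlapped. TCF7L1 did not pass, at 0.21 (adjusted p = 0.179), and LEF1 had at most 3 counts per library. With upper quartile scaling (adjusted p = 0.0409), library totals (0.0155) and both limma fits (0.016 and 0.00773) TCF7L1 passed as higher.

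LBH (ENSG00000213626.13, chromosome 2, 30231534 to 30323730, plus strand) encodes a nuclear cofactor of limb and heart development and is a known target of canonical Wnt signalling in mammary cells. It was at 26.6, 22.7 and 24.3 FPKM in NC and at 57.3, 59.0 and 54.9 in siFSCN1. Every silenced library was above every control library by a wide gap, and the means were 24.5 ± 1.96 (SD, n = 3) and 57.0 ± 2.05 (SD, n = 3). The log2 fold change was 1.05 (standard error 0.052, adjusted p = 3.71e-12), 2.07-fold. LBH lay close to the 2-fold requirement, and without NC replicate 2 the log2 fold change was 0.99. The study picked LBH from these libraries for its difference, so its call is not independent evidence. The 250 bases before its start are shown beside those of DKK1 and have a GC content of 72.8%. They hold neither CTTTGA nor TCAAAG, but of the 35 windows examined only that of DKK1 held these letters. Other forms of the core letters were not searched.

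LBH, chr2:30231284-30231533, plus strand: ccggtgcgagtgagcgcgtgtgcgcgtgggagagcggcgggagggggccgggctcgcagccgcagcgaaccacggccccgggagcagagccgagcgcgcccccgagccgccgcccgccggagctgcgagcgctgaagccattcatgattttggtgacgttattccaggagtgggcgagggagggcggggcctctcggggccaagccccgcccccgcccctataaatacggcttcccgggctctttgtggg

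Fold changes over all genes moved with abundance, so the Wnt genes were also set beside genes of like level. Over all genes with a mean of 0.1 to 1 FPKM the median log2 fold change was 0.37, and 43.4% rose and 13.8% fell. Of the 13 Wnt genes in that range 4 rose (WNT6, WNT5A, FZD8 and APC), 4 fell (FZD9, NKD1, TCF7 and FZD3) and the median was 0.04. Over all genes from 1 to 10 FPKM the median was -0.005, with 35.4% rising and 35.6% falling, while of the 17 Wnt genes there 9 rose, only LRP5 fell and the median was 0.16. Over 10 FPKM the median of all genes was -0.28, with 19.3% rising and 65.7% falling, and of the 6 Wnt genes LBH and LGR4 rose and WNT7B, FZD2, CTNNB1 and, though not under every scaling, DKK1 fell. The falls of FZD9, NKD1, TCF7 and FZD3 thus went against the trend of genes of their level, as did the rises of LBH and LGR4. These counts are descriptions of small groups and carry no test.

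**Figure D4:**
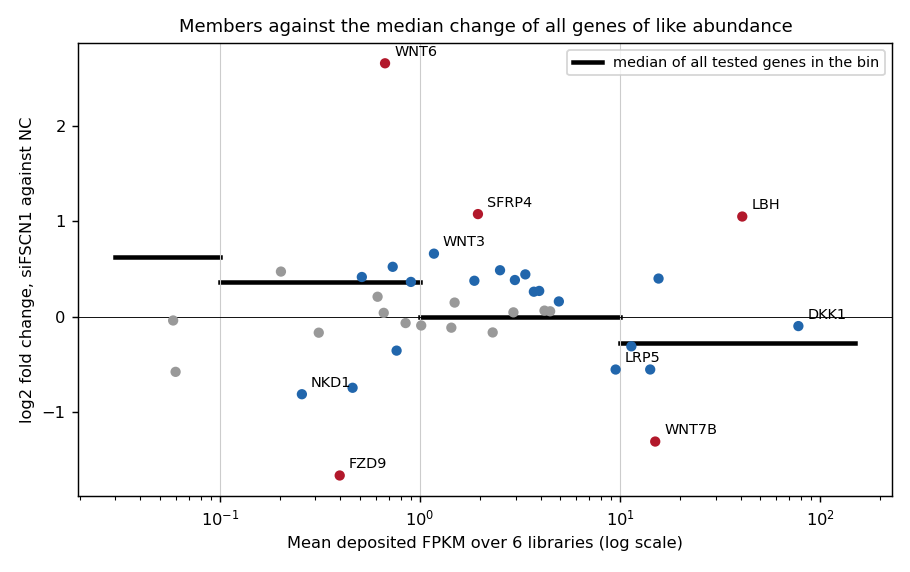
Log2 fold change of the 38 tested genes against their mean deposited FPKM over the 6 libraries (log axis), with red points for genes called at 2-fold, blue for adjusted p under 0.05 without the fold and grey for the rest. Black bars give the median of all tested genes in each range of abundance, which falls from 0.63 at up to 0.1 FPKM to -0.28 over 10 FPKM, and FZD9 and WNT7B lie below and WNT6, SFRP4 and LBH above their bars.

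TMM scaling, which corrects for the composition of the RNA, set the median of all genes at 0.03. Upper quartile scaling moved this median to 0.15 and library totals to 0.22, and the share of higher calls among all calls was 70.6% with TMM, 78.9% with upper quartile scaling, 83.8% with library totals and 51.1% with the abundance trend removed. Deposited FPKM carries no composition correction, so a gene such as AXIN2 could have equal FPKM means and a negative log2 fold change. The directions of WNT6, SFRP4, LBH, LRP6, LGR4, CTNNB1, LRP5, FZD2, WNT7B and FZD9 were the same in every scaling and fit tried, and that of DKK1 was not.

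**Figure D5:**
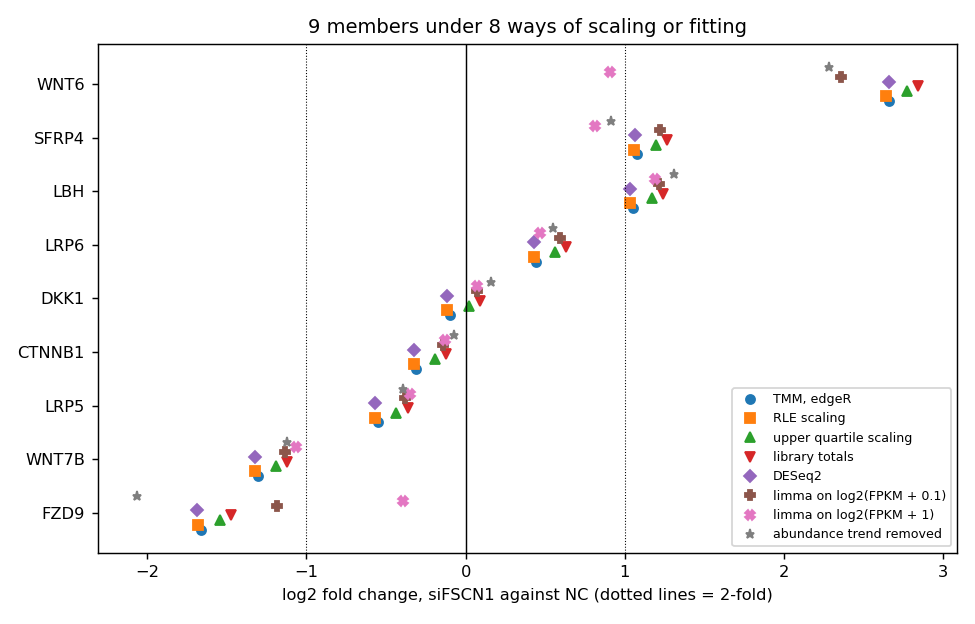
Log2 fold change of 9 genes under 8 ways of scaling or fitting, 1 symbol for each, with dotted lines at 2-fold. WNT6, SFRP4, LBH and LRP6 stay above 0 and LRP5, WNT7B, FZD9 and CTNNB1 stay below it, while DKK1 lies on both sides.

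Of the 49 genes, 26 are overlapped by an annotated gene on the opposite strand and 12 on the same strand in GENCODE v44. The labels and the study's methods name different library kits, each described as strand-specific, and the strand setting of the authors' counting is not given in the sources used here, so reads of overlapping genes cannot be told apart. LBH, WNT6, WNT7B and FZD9 have no overlapping gene. For FZD4, 18.9% of the exonic bases are shared with PRSS23 on the opposite strand, which rose.

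Genes of the same pathway outside the rule were examined in 6 lists holding 86 genes of the table, of which 73 were tested. Over these 73 genes 23 rose and 31 fell, with 1 called higher (JUP) and 7 called lower. That is 31.5% rising and 42.5% falling, beside 35.1% and 33.2% of all genes tested, and 1.37% called higher and 9.59% called lower, beside 11.7% and 4.85%. Their median log2 fold change was -0.03. The 7 called lower include NOTUM, which reached the count minimum of the filter in every NC library but not in every siFSCN1 library.

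Of 7 tested genes of ligand secretion and accessory receptors, 2 rose and 5 fell, with a median of -0.42. That is 28.6% and 71.4%, beside 35.1% and 33.2% of all genes tested, in a small list that carries no test. PORCN, the enzyme that attaches the lipid to Wnt ligands, fell from 1.45 ± 0.129 to 0.933 ± 0.205 FPKM (SD, n = 3), a log2 fold change of -0.80 (adjusted p = 4.66e-05). WLS, the carrier that brings ligands to the cell surface, fell from 3.01 ± 0.117 to 2.53 ± 0.0473 FPKM, a log2 fold change of -0.42 (adjusted p = 0.000193). The WNT5A receptors ROR2 and ROR1 went opposite ways, with log2 fold changes of -1.26 (adjusted p = 0.00121) for ROR2 at 15 to 39 counts per library and 0.81 (adjusted p = 0.00011) for ROR1. PTK7, a pseudokinase co-receptor of planar polarity, had -1.44 (adjusted p = 1.83e-06). With limma on log2(FPKM + 0.1) and log2(FPKM + 1) both falls were under 2-fold, at -0.88 and -0.23 for PTK7 and -0.54 and -0.10 for ROR2. RSPO3, an R-spondin that LGR4 binds, was abundant, at 18.8 ± 0.205 FPKM in NC and 18.1 ± 0.447 in siFSCN1, with a log2 fold change of -0.21 (adjusted p = 0.000237) that did not pass in 5 of 16 alternative fits.

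Of 12 other secreted or surface antagonists, 5 were tested, 3 fell, 2 did not pass and the median was -0.61. The 3 are 60% of those tested, beside 33.2% of all genes tested, again in a small list without a test. With DESeq2 1 of the 5 fell. KREMEN1, a surface receptor that acts with DKK1 on LRP6, fell from 1.04, 0.65 and 0.77 FPKM to 0.41, 0.25 and 0.28, a log2 fold change of -1.56 (adjusted p = 5.25e-07). NOTUM, an enzyme that removes the lipid from Wnt ligands, had -1.37 (adjusted p = 0.0333) on 1 to 15 counts per library, did not pass in 7 of 15 alternatives and ranged from -2.20 to -0.89 on leaving out a library. It had 15, 10 and 12 counts in NC and 5, 10 and 1 in siFSCN1. NOTUM thus reached the count minimum of the filter in every library only in NC, the group where it was higher, and its call is not independent of the filter. KREMEN2 had -0.61 (adjusted p = 0.0426).

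Of 19 cytoplasmic transducers, all tested, 8 rose and 8 fell, with a median of 0.07. That is 42.1% each way, beside 35.1% rising and 33.2% falling over all genes tested. FBXW11, which recognises phosphorylated beta-catenin for ubiquitination, fell from 7.20, 7.68 and 7.18 FPKM to 2.14, 2.07 and 2.22. Its log2 fold change of -1.95 (standard error 0.055, adjusted p = 3.8e-15) was the largest fall among all the Wnt genes examined, and its 3′ UTR held 3 of the guide seed matches described above, whose part was not tested. Its paralog BTRC rose, with a log2 fold change of 0.51 (adjusted p = 1.5e-06). JUP, or plakoglobin, the close relative of beta-catenin in cell junctions, rose from 24.8, 21.6 and 24.1 FPKM to 55.4, 51.0 and 52.2, a log2 fold change of 1.00 (adjusted p = 2.27e-12) that lay at the 2-fold requirement, and was under 2-fold in 6 of 16 alternatives, with 0.93 to 1.26 over all of them. Beta-catenin and plakoglobin transcripts thus moved in opposite directions. Among the kinases and phosphatases, GSK3A had -0.62 (adjusted p = 7.65e-10), PPP2R1A -0.78 (adjusted p = 8.3e-12), CSNK1G1 0.55 and the Dishevelled gene DVL3 0.54 (adjusted p = 7.07e-08).

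Of 16 nuclear cofactors, 4 rose, 3 fell and 9 did not pass, with a median of 0.09. The shares were 25% rising and 18.8% falling, beside 35.1% and 33.2% of all genes tested. With library totals 12 rose and 0 fell, so this split followed the scaling. The Groucho-family genes TLE2 and TLE5 rose, TLE5 from 28.8 ± 1.77 to 57.5 ± 3.58 FPKM (SD, n = 3) with a log2 fold change of 0.83 (adjusted p = 2.87e-11) and TLE2 with 0.98 (adjusted p = 6.44e-07). TLE1 fell by 0.20 on the log2 scale (adjusted p = 0.00092), and TLE3 and TLE4 did not pass. PYGO1, which links BCL9 to chromatin, had 0.55 (adjusted p = 0.00014), and the acetyltransferase KAT5 had -0.29 (adjusted p = 0.000107).

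Of 14 tested target genes outside the rule, 1 rose and 9 fell, with a median of -0.56. That is 7.14% rising and 64.3% falling, beside 35.1% and 33.2% of all genes tested, in a small list that carries no test. CCND1, the gene of cyclin D1, fell from 76.9 ± 2.42 to 45.2 ± 1.23 FPKM (SD, n = 3), a log2 fold change of -0.93 (adjusted p = 1.9e-13). FOSL1, a component of the AP-1 factor, fell from 22.1, 28.7 and 23.8 FPKM to 8.12, 7.58 and 7.78, a log2 fold change of -1.83 (adjusted p = 4.41e-13). PLAUR, the urokinase receptor, had -1.13 (adjusted p = 1.16e-10), JUN -0.77, EPHB2 -0.76, MMP7 -0.76, CD44 -0.63 and MYC -0.18 (adjusted p = 0.000915). The fall of PLAUR was under 2-fold with library totals (-0.94) and both limma fits (-0.94 and -0.79). In FPKM MYC differed little, at 20.7 ± 0.387 in NC and 20.5 ± 0.491 in siFSCN1 (SD, n = 3). Its fall was smaller than the median of -0.28 over all genes above 10 FPKM. SOX9 was the exception, with 0.81 (adjusted p = 1.01e-08). All 6 of these genes over 10 FPKM fell, in a range where 65.7% of all genes fell, and most of them are also known targets of other pathways.

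Of 12 tested genes of planar cell polarity, the branch that orients cells within a sheet, 8 rose and 3 fell, with a median of 0.33. That is 66.7% rising and 25% falling, beside 35.1% and 33.2% of all genes tested, in a small list that carries no test. Fewer of these genes rose with the abundance trend removed. VANGL1 had a log2 fold change of 0.44 (adjusted p = 6.69e-06), VANGL2 0.62 (adjusted p = 0.000857) and SCRIB 0.23 (adjusted p = 0.000264). PRICKLE3 fell from 8.88 ± 0.637 to 5.03 ± 0.266 FPKM (SD, n = 3), a log2 fold change of -0.98 (adjusted p = 6.37e-11), while PRICKLE1 and PRICKLE2 rose. CELSR1, a cadherin of the same branch, had -0.21 (adjusted p = 0.000381) and CELSR2 had -0.32 (adjusted p = 0.00675). CELSR1 did not pass in 5 of 16 alternatives, among them library totals (adjusted p = 0.65). Of the 12 genes 7 had a mean of 0.1 to 1 FPKM, where 43.4% of all genes rose, and 6 of these 7 rose.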

How the data were processed

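For the 3 NC and 3 siFSCN1 libraries the authors deposited raw counts per gene and FPKM, scaled by them to gene length and library size without a composition factor. Per the study's methods, reads were trimmed with the FASTX toolkit, aligned to GRCh38 with HISAT2 and kept where uniquely mapped, while the submitters' processing notes name TopHat2 and bcl2fastq. How reads were assigned to genes (program, strand, annotation) is not given in the sources used here. Groups and replicate numbers came from sample titles.

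Genes were filtered with filterByExpr, which kept 17076 of 30230, and scaled by TMM. R 4.3.3 with edgeR 4.0.16 ran the quasi-likelihood test between the groups, without covariates, and p-values were adjusted by Benjamini-Hochberg over all genes tested. The study used DESeq2, which was run as an alternative (DESeq2 1.42.0), as was limma 3.58.1 on log2(FPKM + 0.1) and log2(FPKM + 1). With 3 libraries per group the smallest exact two-sided permutation p is 0.1, so single values were not tested that way. The scripts were tested on simulated counts first.

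The Wnt genes and the 6 further lists were chosen with earlier results of these data known. Full values are given for FSCN1, LBH, CTNNB1, APC, AXIN2, LRP5, LRP6, called genes and genes of at least 5 FPKM in a group, and other Wnt genes by fold change. Library values of WNT3, DKK3, NKD1, TCF7 and TCF7L2 were added. In each further list the called genes and up to 4 more of largest fold change with at least 1 FPKM are named, and BTRC, KREMEN2, MMP7, CD44, MYC, TLE1, TLE3, TLE4, VANGL2, PRICKLE1, PRICKLE2 and CELSR2 were added after their values were seen. Positions, overlaps and 3′ UTRs came from GENCODE v44, where all 49 genes were found, and promoters from RefSeq.

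No libraries of a group agreed within sampling noise (chi-square divided by its degrees of freedom, 2.95 to 7.49). Libraries with the same replicate number did not deviate together, with correlations of -0.035, 0.04 and -0.084. The libraries' depth sets the precision of low values, with 1 CPM equal to 26.3 to 34.4 counts.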

Additional observations from a re-analysis of the deposited data

How the results depend on the processing

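Counts of 15 rising and 9 falling genes were within 1.5 times of these under every alternative, namely RLE and upper quartile scaling, library totals, DESeq2, no filter, a stricter filter, limma, the abundance trend removed and leaving out each library. The numbers still moved with the scaling. Rising and falling genes were 22 and 7 with library totals, 20 and 7 with each limma fit and 18 and 8 with upper quartile scaling. With the abundance trend removed they were 15 and 12. The 3 genes called higher became 1 (LBH) with limma on log2(FPKM + 1), 2 (LBH and WNT6) with the abundance trend removed, and 1 to 3 on leaving out a library. Without NC replicate 2 only WNT6 was called, with LBH at 0.99 and SFRP4 at 0.86. The 2 called lower became 1 (WNT7B) with limma on log2(FPKM + 1), 4 (with NKD1 and WNT2B) with the abundance trend removed, and 2 to 3 on leaving out a library (3, with NKD1, without siFSCN1 replicate 3). A pseudocount of 1 shrinks the folds of low genes by construction, and the cause of the other changes was not tested. FSCN1 ranged from -4.11 to -3.41.

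Over all 17076 genes, calls went from 1991 higher and 829 lower to 285 and 186 with limma on log2(FPKM + 1), 1587 and 395 with limma on log2(FPKM + 0.1), 2637 and 510 with library totals, and 1282 and 1229 with the abundance trend removed. The replicate number as a block gave 1992 and 835 and left the 3 and 2 called Wnt genes as they were. Pairing by number was not borne out by the deviations. Among the single genes named, DKK1 did not pass with the block (adjusted p = 0.0507), and no count moved past 1.5 times.

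Directions reversed for genes that did not pass and for DKK1. With upper quartile scaling, library totals, limma on log2(FPKM + 0.1) and limma on log2(FPKM + 1), in this order, the log2 fold changes were 0.0213, 0.0905, 0.0693 and 0.0685 for DKK1, 0.0278, 0.0973, 0.0716 and 0.0389 for FZD1, 0.0528, 0.1225, 0.0905 and 0.0466 for LGR6, 0.0049, 0.0738, 0.0267 and 0.0206 for WNT10B and 0.0778, 0.1460, 0.0498 and 0.0049 for WNT5B. Library totals also gave 0.0237 for AXIN2 and 0.0204 for FZD4. With the abundance trend removed they were 0.159 for DKK1, -0.0027 for FZD7, -0.0741 for NKD2, -0.0691 for TCF7L1 and -0.241 for WNT9A. On leaving out a library the range was -0.0141 to 0.1095 for FZD6 and -0.0033 to 0.0702 for FZD7, both below 0 only without siFSCN1 replicate 3, -0.539 to 0.492 for WNT5B and -0.185 to 0.234 for WNT9A.

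In the further lists, upper quartile scaling, library totals and both limma fits gave 5 falling transducers, 3 rising targets and 1 falling polarity gene, against 8, 1 and 3 with TMM scaling in edgeR. These 4 fits gave 10, 12, 10 and 10 rising nuclear cofactors (4 with TMM), and library totals and both limma fits gave 0 falling (3 with TMM), against 1 with the abundance trend removed. That last fit also gave 5 falling transducers and 5 rising polarity genes (8 with TMM). Falling antagonists outside the rule were 1 with library totals and with DESeq2 (3 with TMM), and 1 to 3 on leaving out a library. The latter gave 1 to 2 rising secretion genes and 1 to 2 rising targets.

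Limits are the 3 libraries per group from 1 siRNA, the low counts of WNT6, FZD9, WNT5B and WNT2B, reads shared between overlapping genes, and transcript levels as the only readout, since protein, ligand secretion and beta-catenin activity were not measured here.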

Other observations

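Genes that overlap the Wnt loci without being part of the pathway gave the following values. EPDR1, across the SFRP4 locus on the other strand, was at 23.7, 22.7 and 23.4 FPKM in NC and at 71.4, 70.0 and 71.2 in siFSCN1. Each silenced library was far above each control library, at a log2 fold change of 1.44 (standard error 0.039). PRSS23, a secreted protease gene across FZD4, was at 23.2, 23.7 and 23.0 FPKM in NC and at 41.0, 40.7 and 40.7 in siFSCN1, at a log2 fold change of 0.65, while FZD4 itself stood at -0.17. TSPAN8, a tetraspanin gene that overlaps LGR5 without a shared exonic base, had a log2 fold change of 1.82 and between 0.84 and 4.02 FPKM, while LGR5 stayed at 0 to 2 counts. FBXL14, across WNT5B, had a log2 fold change of -0.999, and WNT5B had -0.04. The part of shared reads in these values was not tested.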
